A study of Rattus norvegicus with 6 samples.

Results

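On a rat gene array, 6 features that carry the names of tumour suppressors or growth-restraining genes were followed: H-rev107, Hrev107-2, Par4, LOT1, BCSC-1 and MEN1. They were chosen by name, with earlier results of these data known. All 6 were found, and each was printed as 4 spots. They are 6 of the 311 features on the array. RNA was measured on 6 spotted arrays in 2 colours, and each array paired 1 sample with RNA of untreated ROSE199, a line derived from rat ovarian surface epithelium. In every array the other colour thus held the same parental line. The samples were ROSE199 stably transfected with the empty expression vector pEF6 (1 array), ROSE199 stably transfected with pEF6 carrying HMGA2 (2 arrays), ROSEA25 given siRNA against EGFP, called siEGFP here (1 array), and ROSEA25 given siRNA against HMGA2, called siHMGA2 (2 arrays). HMGA2 is an architectural chromatin protein of embryonic tissue that binds AT-rich DNA, and the study is titled for its part in the K-RAS programme. The protocol of the siRNA samples names ROSE-RAS cells, so ROSEA25 was read as a K-RAS-transformed line made from ROSE199. The transfectants were selected in 10 µg/ml blasticidin, and the labels name no such selection for untreated ROSE199. The siRNA was used at 0.2 µM in 2 doses 24 h apart and cells were taken 48 h after the first dose. All cells grew in 10% serum, and 20 µg of RNA went into each labelling. No array held ROSEA25 without siRNA or ROSE199 with siRNA, so K-RAS, the derivation of the line and transfection with siRNA cannot be told apart when ROSEA25 is set against ROSE199.

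The members belong to different branches of growth control. H-rev107 was isolated as a gene expressed in revertants of HRAS-transformed rat fibroblasts and lost in the transformed cells; it encodes a phospholipase and acyltransferase. Par4, read here as the product of Pawr, is a leucine-zipper protein that promotes apoptosis, binds WT1 and inhibits atypical protein kinase C. Oncogenic RAS is known to lower Par4 in fibroblasts. LOT1, named for being lost on transformation, was found in rat ovarian surface epithelial cells and encodes an imprinted zinc finger transcription factor that brings about cell cycle arrest and apoptosis. MEN1 encodes menin, a scaffold of MLL histone methyltransferase complexes and a partner of JunD. BCSC-1 is a breast cancer suppressor candidate described in human cells. Hrev107-2 is named after H-rev107 on the array.

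The promoters of H-rev107, Par4 and LOT1 are shown because these 3 members were lower together in ROSEA25 cells with siEGFP. By name, 4 of the 6 members matched a gene of the RefSeq annotation of the rat build GRCr8: H-rev107 matched Plaat3, LOT1 matched Plagl1, MEN1 matched Men1, and Par4 matched Pawr through the same spelling, although F2rl3 carries the name PAR4 too. No probe sequence was at hand to tell Pawr from F2rl3. Hrev107-2 and BCSC-1 were not matched. The windows are the 250 bases before the annotated start of each gene, all on the plus strand, from RefSeq: chr1:214211629-214211878 for Plaat3, chr7:45531989-45532238 for Pawr and chr1:9297214-9297463 for Plagl1. Capitals mark GGGCGG or its reverse complement CCGCCC, the core of a GC box.
Plaat3 (H-rev107): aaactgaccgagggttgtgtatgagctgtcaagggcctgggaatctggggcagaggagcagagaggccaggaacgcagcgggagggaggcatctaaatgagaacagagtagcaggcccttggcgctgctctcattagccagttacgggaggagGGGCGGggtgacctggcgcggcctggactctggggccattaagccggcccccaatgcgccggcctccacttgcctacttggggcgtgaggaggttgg
Pawr (Par4): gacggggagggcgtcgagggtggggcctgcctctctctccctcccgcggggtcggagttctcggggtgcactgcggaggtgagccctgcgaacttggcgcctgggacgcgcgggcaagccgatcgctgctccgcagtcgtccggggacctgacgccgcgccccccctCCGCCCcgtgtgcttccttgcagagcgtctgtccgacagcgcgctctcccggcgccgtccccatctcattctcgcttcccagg
Plagl1 (LOT1): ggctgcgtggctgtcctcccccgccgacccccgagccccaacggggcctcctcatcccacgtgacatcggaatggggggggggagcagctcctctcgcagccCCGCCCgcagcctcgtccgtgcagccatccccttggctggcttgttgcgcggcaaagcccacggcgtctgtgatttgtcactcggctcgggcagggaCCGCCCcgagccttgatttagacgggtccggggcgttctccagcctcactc

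All 3 windows are rich in G and C. Their GC content is 63.2% for Plaat3, 72.8% for Pawr and 70.0% for Plagl1, against a median of 51.2% over the 33469 promoter windows of the same length in the RefSeq table. Plaat3 holds 12 CpG sites, Pawr 31 and Plagl1 23, and the median promoter holds 5. The Men1 window (chr1:213068032-213068281, plus strand) lies closer to the median, with 56.4% GC and 10 CpG sites. GGGCGG, searched on both strands, occurs 1 time in Plaat3, 1 time in Pawr, 2 times in Plagl1 and 1 time in Men1, and 30.5% of all promoters hold it. The AT-rich tetramer AATT, which is its own reverse complement and was searched because HMGA proteins bind AT-rich DNA, is in none of these 4 windows and in 49.2% of all promoters. Both shares are over all promoters, and no share at matched GC content was worked out. AATT holds no G or C and GGGCGG holds nothing else, so GC content bears on both counts. These counts are descriptions of the letters in the windows and no sign of binding.

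Each array had 1760 spots, and 21 to 64 spots per array marked as poor were left out. Values are log2 ratios of the sample to ROSE199 on the same array, so 0 is the ROSE199 level and 1 is a doubling. Cy3 carried the sample on HMGA2 replicate 2 and siHMGA2 replicate 2, and Cy5 carried it on the other arrays. The labels do not say whether the arrays of a pair came from separate cultures. They were read as a dye swap of the same RNA, and on that reading every group is a single sample, so no test between groups was made and no p-value is given. Group values come from a least-squares fit that estimates the 4 groups and a dye effect for each feature; the dye effect of the empty-vector and siEGFP arrays is thus borrowed from the swapped groups. On the same reading its pooled standard error covers labelling and hybridization only. The error was 0.22 between transfectants or between siRNAs. Against ROSE199 it was 0.19 for a group of 1 array and 0.12 for a group of 2 arrays. It was scaled from the median residual over all features (SD 0.169). The residual SDs of H-rev107 (0.345), Par4 (0.366), LOT1 (0.276) and BCSC-1 (0.228) were larger, so the pooled error may understate their spread. Those of Hrev107-2 (0.148) and MEN1 (0.034) were smaller. Each of these SDs, large or small, rests on 1 residual and cannot settle the spread of its feature. A feature is said to pass, and is called higher or lower, where the fitted log2 difference was at least 1 in size, exceeded 2 pooled standard errors and kept its sign when Cy5 arrays alone were used.

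The labels were checked first on the manipulated genes. HMGI-C is the older name under which HMGA2 was spotted, and it had log2 ratios of 0.26 with the empty vector, 3.70 and 3.33 in HMGA2 cells, 2.40 with siEGFP, and 1.20 and 1.59 with siHMGA2. HMGA2 transfectants differed from the empty vector by 3.25 in the fit. The fitted knock-down, siHMGA2 minus siEGFP, was -1.01, but only -0.44 without siHMGA2 replicate 1 and -0.15 with the arrays scaled to one spread. The ROSE199 channel of HMGI-C was dim. Its net signal was 1.08 times the blank limit on siHMGA2 replicate 2 and at most 4.08 times it, on HMGA2 replicate 2, so the sizes of these ratios are uncertain. K-ras had log2 ratios of 0.03 with the empty vector and 4.25 with siEGFP, of -0.29 and -0.11 in the HMGA2 cells, and 4.82 and 4.60 with siHMGA2. All 6 ovarian surface epithelial markers (WT1, Megakaryocyte potenciating factor, P-cadherin, E-cadherin, DOC-2 and Basonuclin) were above the blank spots in the ROSE199 channel of all 6 arrays. This does not tell cell types apart, since only 1 to 35 of the 311 features per array were not above blank there. The mesenchymal or smooth muscle markers Collagen alpha, SM22 and P9ka42a were above blank on all 6 arrays as well, and Thy-1 on 5. Net signal was lower on the siHMGA2 arrays, where the median over features in the sample channel was 422 and 592 units, than on the siEGFP array, where it was 1145.

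Against ROSE199, ROSEA25 cells with siEGFP had less H-rev107, Par4 and LOT1 and more BCSC-1, while MEN1 and Hrev107-2 stayed near 0. Thus 4 of the 6 members passed, 3 lower and 1 higher, where 26.7% of the 311 features passed in this comparison. Since the members were chosen with earlier results of these data known, setting their counts beside such shares is a description and no test. The members' median was -1.06 and that of all features -0.02. In RNA from whole cultures, fewer cells expressing a gene and less RNA per cell cannot be told apart.

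H-rev107 varied across the whole study. Its log2 ratio to ROSE199 was 0.60 with the empty vector, 1.35 and 1.31 in the HMGA2 cells, -1.98 with siEGFP, and -0.41 and -1.14 with siHMGA2. Both ROSE199 transfectants lay above the parental line and both ROSEA25 samples below it, and no array of one kind overlapped the other. The fitted deficit with siEGFP was -2.18 (pooled standard error 0.19), a level 4.51-fold lower than in ROSE199. From high to low the fitted levels ran HMGA2 (1.33), empty vector (0.41), ROSE199, siHMGA2 (-0.78) and siEGFP (-2.18). Neighbouring pairs were more than 2 pooled standard errors apart, but the residual SD of H-rev107 itself was 0.345 against the pooled 0.169. The smallest step, empty vector over ROSE199, was 0.24 with either HMGA2 array left out, 0.27 with median centring and 0.18 in the authors' deposited ratios, each under 2 standard errors of that setting. Net signal of H-rev107 with siEGFP was 253 units against a blank limit of 142, so the deficit rests on a dim sample channel.

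Par4 was low on every ROSEA25 array. Its log2 ratios were 0.02 with the empty vector, -0.35 and -0.34 in HMGA2 cells, -3.51 with siEGFP, and -2.23 and -1.49 with siHMGA2. The 3 arrays of ROSE199 transfectants stayed within 0.4 of the parental level, and the 3 ROSEA25 arrays all lay far below them. The fitted value with siEGFP was -3.32, that is 9.99-fold lower than ROSE199, and with siHMGA2 it was -1.86, or 3.63-fold lower. Empty vector (0.21) and ROSE199 differed by less than 2 pooled standard errors.

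LOT1 was low in both ROSEA25 samples. The log2 ratios were -0.60 with the empty vector, -0.28 and -0.48 in HMGA2 cells, -2.11 with siEGFP, and -1.63 and -2.38 with siHMGA2. LOT1 read below ROSE199 on all 6 arrays, and the siEGFP value lay between those of the siHMGA2 arrays. In HMGA2 cells the sign depended on the processing. The deposited ratio on HMGA2 replicate 1 was 0.21, and the fitted HMGA2 value with beta actin centring was 0.04. The fitted level was 5.07-fold lower (-2.34) with siEGFP and 4.00-fold lower than ROSE199 with siHMGA2, and the 2 differed by less than 2 pooled standard errors. Its probe was bright, with net signals of 2729 units or more on every array. In the ROSE199 transfectants the fitted values were -0.84 with the empty vector and -0.38 with HMGA2, neither of which passed.

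BCSC-1 ran the other way. Its log2 ratios were 0.13 with the empty vector, -0.19 and -0.54 in HMGA2 cells, 1.77 with siEGFP, and 1.61 and 1.72 with siHMGA2. The 3 ROSEA25 arrays lay within 0.2 of each other, above all ROSE199 arrays. The fitted values were 1.71 with siEGFP (3.27-fold higher than ROSE199) and 1.67 with siHMGA2 (3.17-fold higher). With the arrays scaled to one spread the siEGFP value was 0.97 and did not pass.

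**Figure D1:**
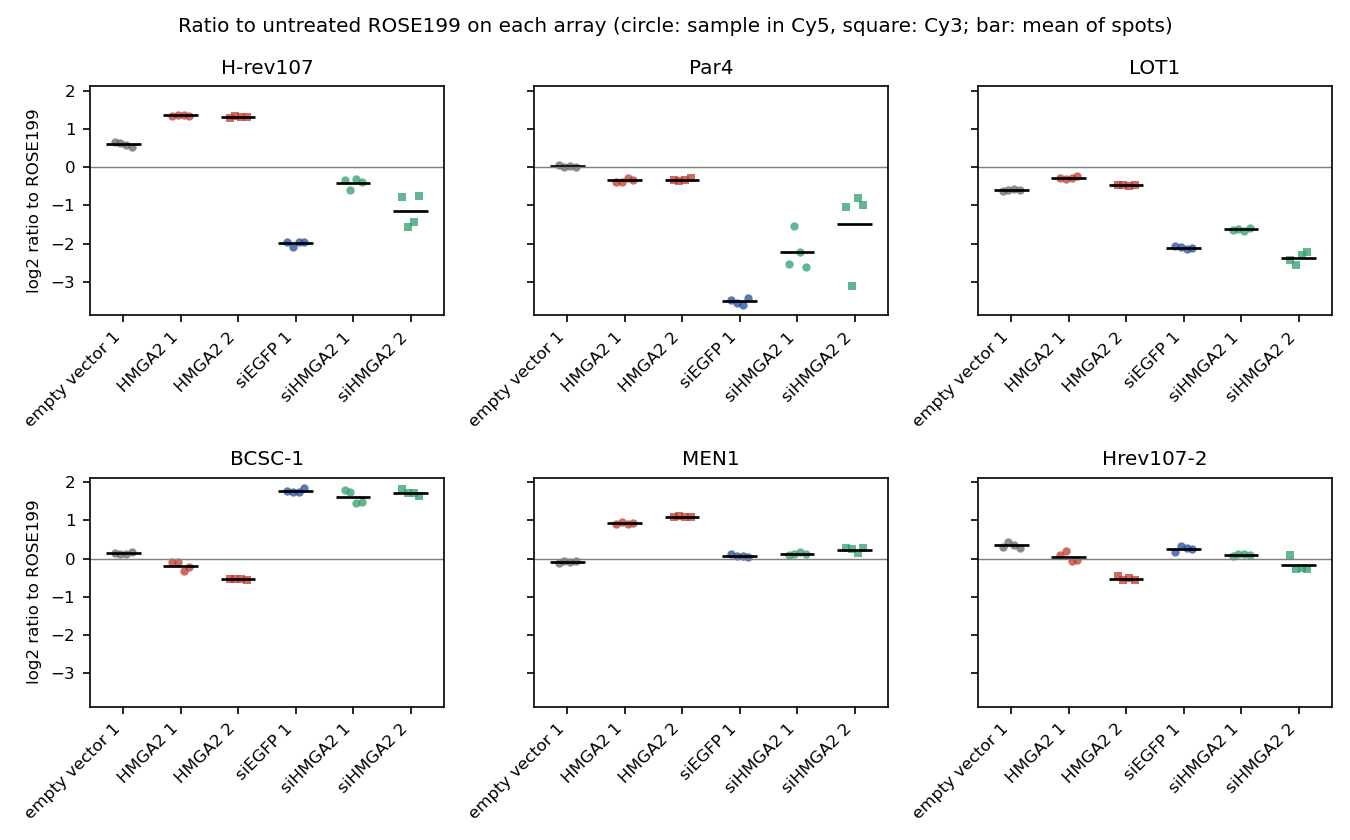
Log2 ratio to untreated ROSE199 (y axis) of the 6 members on each of the 6 arrays (x axis); circles are spots with the sample in Cy5, squares with the sample in Cy3, and bars are means of the 4 spots. H-rev107, Par4 and LOT1 lie below 0 and BCSC-1 above it on all 3 ROSEA25 arrays, and MEN1 lies near 1 on the HMGA2 arrays alone.

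MEN1 showed no such difference in ROSEA25 cells. It had log2 ratios of -0.08 with the empty vector, 0.92 and 1.09 in HMGA2 cells, 0.07 with siEGFP, and 0.13 and 0.23 with siHMGA2. The HMGA2 arrays stood apart from the other 4, which lay within 0.3 of ROSE199. Among the fitted levels outside HMGA2, siHMGA2 (0.18), siEGFP (0.14) and empty vector (-0.02) each differed from ROSE199 by less than 2 pooled standard errors.

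Hrev107-2 did not follow H-rev107. Its log2 ratios were 0.35 with the empty vector, 0.04 and -0.52 in HMGA2 cells, 0.26 with siEGFP, and 0.09 and -0.17 with siHMGA2, and it passed in none of the 6 comparisons. The Cy5 arrays read higher than the Cy3 array in both swapped groups. This probe was dim. With siEGFP its net signal of 141.6 units barely exceeded the blank limit of 141.5, and on siHMGA2 replicate 2 the ROSE199 channel was below its limit. No smallest detectable difference was worked out, and whether the dim signal hid a difference was not tested.

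The other growth-restraining genes of the array were described in the same way, from a list chosen with earlier results of these data known. Of its 15 names, P21 and Gas1 were not matched. Of the other 13, P53 binding protein was not above the blank spots with siEGFP. Of the remaining 12, 6 were lower and none higher with siEGFP than in ROSE199, with a median of -1.10. Of all 311 features, 48 were lower and 35 higher in this comparison. Over the alternatives 5 to 7 were lower, and the median was -0.71 with the arrays scaled to one spread. Lower were Thrombospondin 1 (-3.77), an inhibitor of angiogenesis, TSC36 (-3.57), a secreted follistatin-related glycoprotein, the lysyl oxidase Lox (-3.13), the adhesion molecule E-cadherin (-2.55), Ril (-1.66) and WT1 (-1.42), the transcription factor that Par4 binds. P53 binding protein was at least 2.44-fold lower than in ROSE199. That bound sets the ROSE199 mean signal against the lowest signal among features above blank, per channel, and is open to dye bias. The pocket protein RB (0.74), P53 (-0.79), the cyclin-dependent kinase inhibitors P16 (-0.58) and P27 kip (-0.69), the menin partner JunD (-0.66) and DOC-2 (-0.74) did not pass. WT1, E-cadherin and DOC-2 are also on the list of ovarian surface epithelial markers. Of these markers 5 of 6 were lower with siEGFP (median -2.27) and 4 of 6 with siHMGA2 (median -1.78), where 32 of all 311 features were lower. Of the mesenchymal or smooth muscle markers, Collagen alpha (-4.70) and SM22 (-4.56) were lower with siEGFP, P9ka42a (1.99) was higher, and Thy-1 was not above blank. The part of these shifts in the members' values was not tested.

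**Figure D2:**
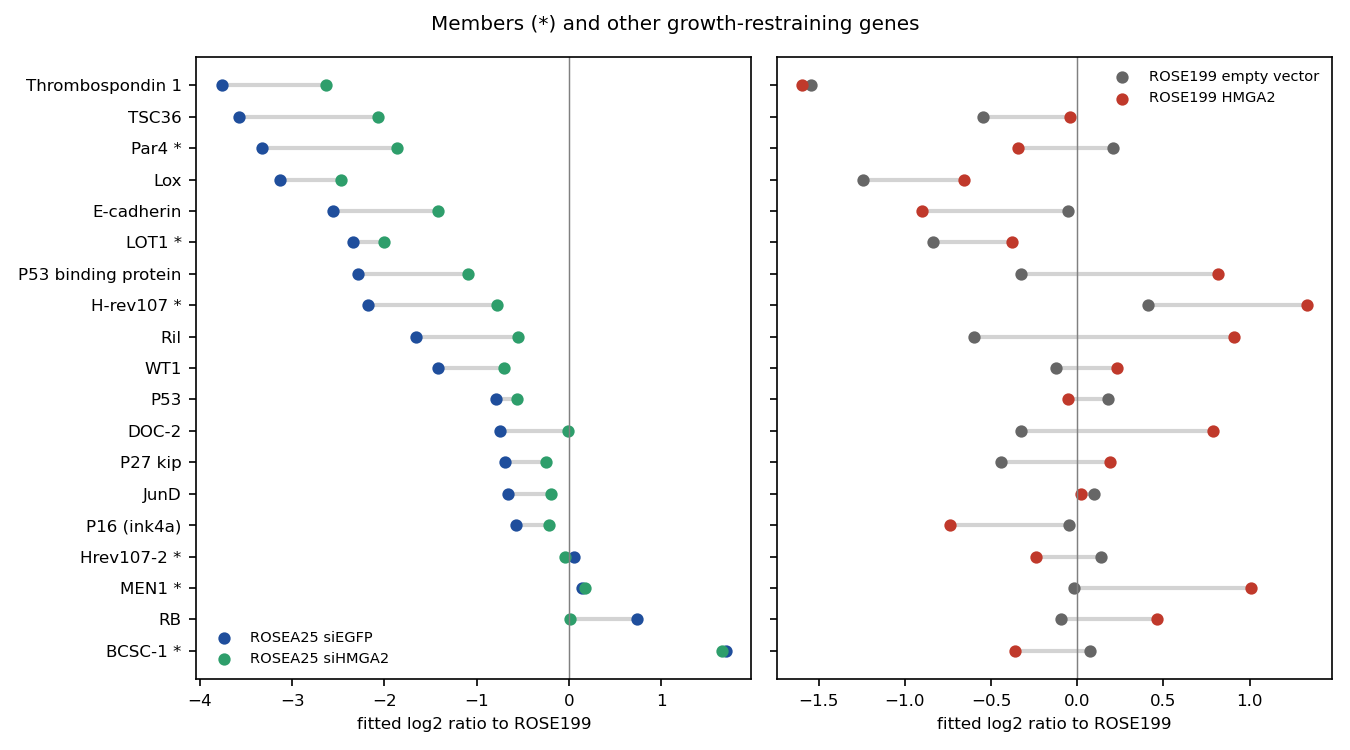
Fitted log2 ratio to ROSE199 (x axis) of the 6 members, marked by asterisks, and 13 other growth-restraining genes (y axis), with siEGFP and siHMGA2 joined at left and empty vector and HMGA2 joined at right. At left most genes lie below 0, BCSC-1 lies near 1.7 in both samples, and H-rev107 and Par4 have the lower value with siEGFP; P53 binding protein was not above blank with siEGFP, and x ranges differ between the panels.

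With siHMGA2, which shares the ROSE199 reference but no sample array with siEGFP, 3 of 6 members passed against ROSE199: Par4 and LOT1 lower and BCSC-1 higher, where 19% of all features passed. H-rev107 (-0.78, pooled standard error 0.12) did not reach the size limit. Its value was -1.12, and passed, without siHMGA2 replicate 1, and was smaller without siHMGA2 replicate 2 (-0.43), with Cy5 arrays only (-0.41), in the deposited ratios (-0.45) and without background subtraction (-0.47). Among the other growth-restraining genes 5 of 13 were lower (median -0.56), 3 with Cy5 arrays only (median -0.32), in the deposited ratios (-0.24) or without background subtraction, and the median of all features was -0.03.

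The question of which of these differences moved when HMGA2 was targeted in ROSEA25 is addressed by siHMGA2 against siEGFP. The ratios of H-rev107 and Par4 to ROSE199 were higher with siHMGA2, and the other 4 members did not pass. H-rev107 differed by 1.40 (pooled standard error 0.22), or 2.64-fold, and Par4 by 1.46, or 2.76-fold, which left Par4 still well below ROSE199. LOT1 differed by 0.34, MEN1 by 0.04, BCSC-1 by -0.04 and Hrev107-2 by -0.09. The 2 of 6 stand beside 10.9% of features passing in this comparison, and the members' median of 0.19 beside one of 0.03 for all features. The siEGFP array is also the sample side of the siEGFP comparison with ROSE199, so an error on it enters both with opposite sign. Several cell type markers were higher too: of the ovarian surface epithelial markers P-cadherin (1.60), Basonuclin (1.43) and E-cadherin (1.13) were higher, 3 of 6 with a list median of 0.93, and of the mesenchymal or smooth muscle markers SM22 (1.75), Collagen alpha (1.36) and P9ka42a (1.31) were higher, 3 of 4. The part of these markers in the members' values was not tested.

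Single spots of Par4 disagreed on both siHMGA2 arrays, and those of H-rev107 on siHMGA2 replicate 2. On siHMGA2 replicate 2 the 4 Par4 spots read -1.05, -3.11, -0.81 and -0.99, with net ROSE199 signals of 513, 3657, 421 and 514 units. The brightest of them was near the siEGFP array, where the 4 spots read -3.60 to -3.41 at ROSE199 signals between 4550 and 5027 units. On siHMGA2 replicate 1 the Par4 spots read -2.52, -1.55, -2.23 and -2.61 at 2149, 931, 1436 and 2285 units.

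Par4 spots that were dim in ROSE199 thus read smaller deficits than bright ones, although spots of nearly equal brightness did not keep a strict order. ROSE199 signal is also the denominator of the ratio, and on siHMGA2 replicate 2 the sample signal of the Par4 spots varied less, from 310 to 442 units. The H-rev107 spots of siHMGA2 replicate 2 also differed with brightness, with -0.78, -1.58, -1.44 and -0.75 at 257, 587, 548 and 236 units. On siHMGA2 replicate 1 they were close together and showed no such order, with -0.33, -0.60, -0.32 and -0.40 at 341, 340, 309 and 307 units. On the siEGFP array, at 1316 to 1456 units, the H-rev107 spots read -2.08 to -1.95. The part of spot brightness in the higher values with siHMGA2 was not tested directly. Summing the net signals of the 4 spots before taking the ratio gives bright spots more weight, and was chosen after these spots were seen. With it Par4 differed by 1.11 and H-rev107 by 1.53 between siHMGA2 and siEGFP, and both passed. Such sums within an array cannot address brightness differences between arrays. Mean ROSE199 net signal of H-rev107 was 1385 units on the siEGFP array and 324 and 407 on the siHMGA2 arrays. For Par4 it was 4851 with siEGFP and 1700 and 1276 with siHMGA2. Mean sample net signal was not higher with siHMGA2. For H-rev107 it was 253 units with siEGFP and 126.5 and 239 with siHMGA2, and for Par4 486.5 against 254 and 348. The blank limits of these sample channels were 142 with siEGFP and 40 and 168 with siHMGA2, so H-rev107 was dim on siHMGA2 replicate 2 as well. The part of the weaker ROSE199 signal in the higher ratios was not tested.

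**Figure D3:**
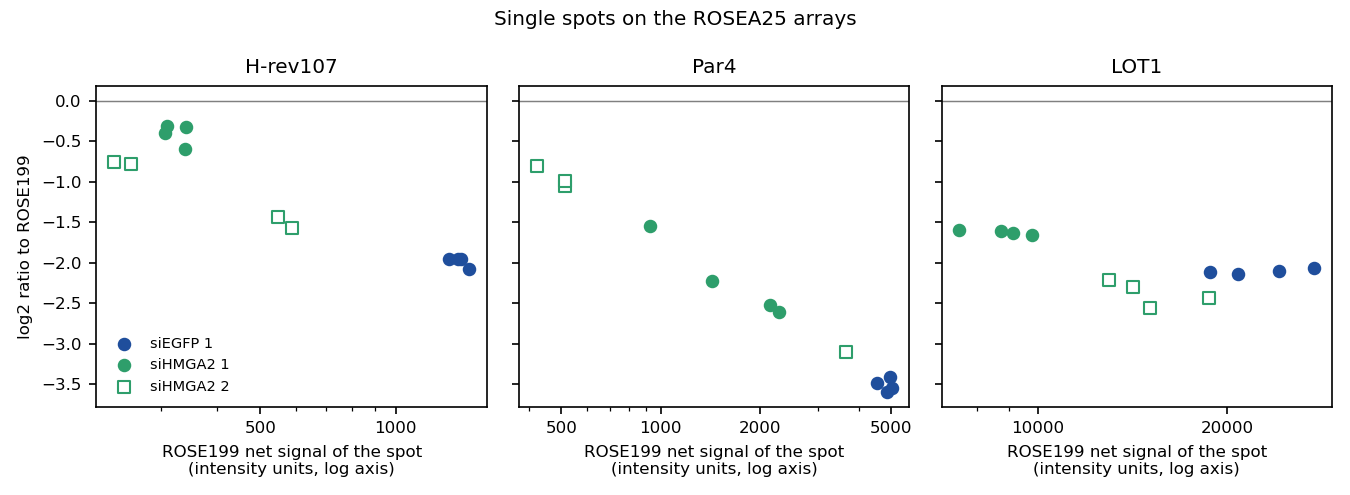
Log2 ratio to ROSE199 of single spots (y axis) against the spot's net ROSE199 signal in intensity units (log x axis, with a range of its own in each panel) for H-rev107, Par4 and LOT1 on the 3 ROSEA25 arrays. Dim Par4 spots read about -1 and bright ones below -3, while LOT1 lies between -2.6 and -1.6 throughout.

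The higher values of H-rev107 and Par4 depended on the processing. With the arrays scaled to one spread, H-rev107 differed by 0.75 and Par4 by 0.30 and neither passed. Without siHMGA2 replicate 1, the value was 0.88 for H-rev107 and 2.01 for Par4, and without background subtraction H-rev107 was at 0.93. The siHMGA2 arrays differed from each other by 0.73 for H-rev107 (Cy5 minus Cy3) and by -0.74 for Par4. The same gaps between the HMGA2 arrays were only 0.04 and -0.01. The fitted dye terms, 0.19 for H-rev107 and -0.19 for Par4, thus rest mostly on the siHMGA2 pair. They enter the siEGFP values, which were -1.98 on the array and -2.18 fitted for H-rev107, and -3.51 and -3.32 for Par4. The cause of the siHMGA2 gaps was not tested.

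In the same comparison 4 of the 12 other growth-restraining genes above blank in both samples were higher and none lower, with a median of 0.68: TSC36 (1.51), E-cadherin (1.13), Thrombospondin 1 (1.13) and Ril (1.11), a LIM domain protein. Of all 311 features, 27 were higher and 7 lower. For P53 binding protein, not above blank with siEGFP, no difference is given. RB lay at -0.73 and Lox at 0.66, and neither passed. No gene of this list passed with the arrays scaled to one spread, 1 did without siHMGA2 replicate 1, without the dye term, with summed net signals or with the deposited ratios, and 2 did with median centring or without background subtraction.

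The reciprocal question, whether HMGA2 alone moved the members in ROSE199, is addressed by HMGA2 against empty vector. MEN1 was 2.04-fold higher (1.03, pooled standard error 0.22), the single member of 6 to pass, where 7.72% of all features passed. H-rev107 differed by 0.92 and LOT1 by 0.46, Hrev107-2 by -0.38, BCSC-1 by -0.43 and Par4 by -0.55. The members' median was 0.04 and that of all features 0.00. Quantification of the HMGA2 arrays took place on a separate day, and in this comparison HMGA2 and that day cannot be told apart.

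H-rev107 did not keep to one side of the size limit here. It passed with centring on each array's median (1.14), with centring on beta actin (1.39), with the authors' deposited ratios (1.12), with summed net signals (1.08) and without HMGA2 replicate 1 (1.44). It was smaller, at 0.75, with Cy5 arrays only and without HMGA2 replicate 2 or either siHMGA2 array, 0.73 without the dye term and 0.51 with the arrays scaled to one spread. MEN1 stood just above it and did not pass when background was not subtracted (0.94).

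Against ROSE199 itself, H-rev107 (1.33, 2.52-fold) and MEN1 (1.01, 2.01-fold) were higher with HMGA2, 2 of 6 members where 6.75% of features passed. The members' median was -0.29, since Par4 (-0.35), LOT1 (-0.38), BCSC-1 (-0.36) and Hrev107-2 (-0.24) lay below 0 without passing. No member passed with the empty vector against ROSE199, where 2.89% of features did, and their values ran from -0.84 for LOT1 to 0.41 for H-rev107. MEN1 against ROSE199 was under the limit in the Cy5 arrays alone (0.92), without HMGA2 replicate 2 (0.98), without background subtraction (0.95) and in the deposited ratios (0.99). Without HMGA2 replicate 2, H-rev107 was also under it (0.99).

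Of the 13 other growth-restraining genes, Ril (1.51), P53 binding protein (1.14) and DOC-2 (1.12), an adaptor that restrains RAS signalling, were higher with HMGA2 than with the empty vector, and none was lower. E-cadherin lay at -0.85 and P16 at -0.69 without passing. The median of the list was 0.51. Of all 311 features, 14 were higher and 10 lower. Over the alternatives 1 to 5 of the list were higher and at most 1 lower, and the median ran from 0.21 in the deposited ratios to 0.76 with beta actin centring. Of the markers, DOC-2 was the 1 of 6 ovarian surface epithelial genes to pass and Collagen alpha (-1.44) the 1 of 4 mesenchymal or smooth muscle genes.

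**Figure D4:**
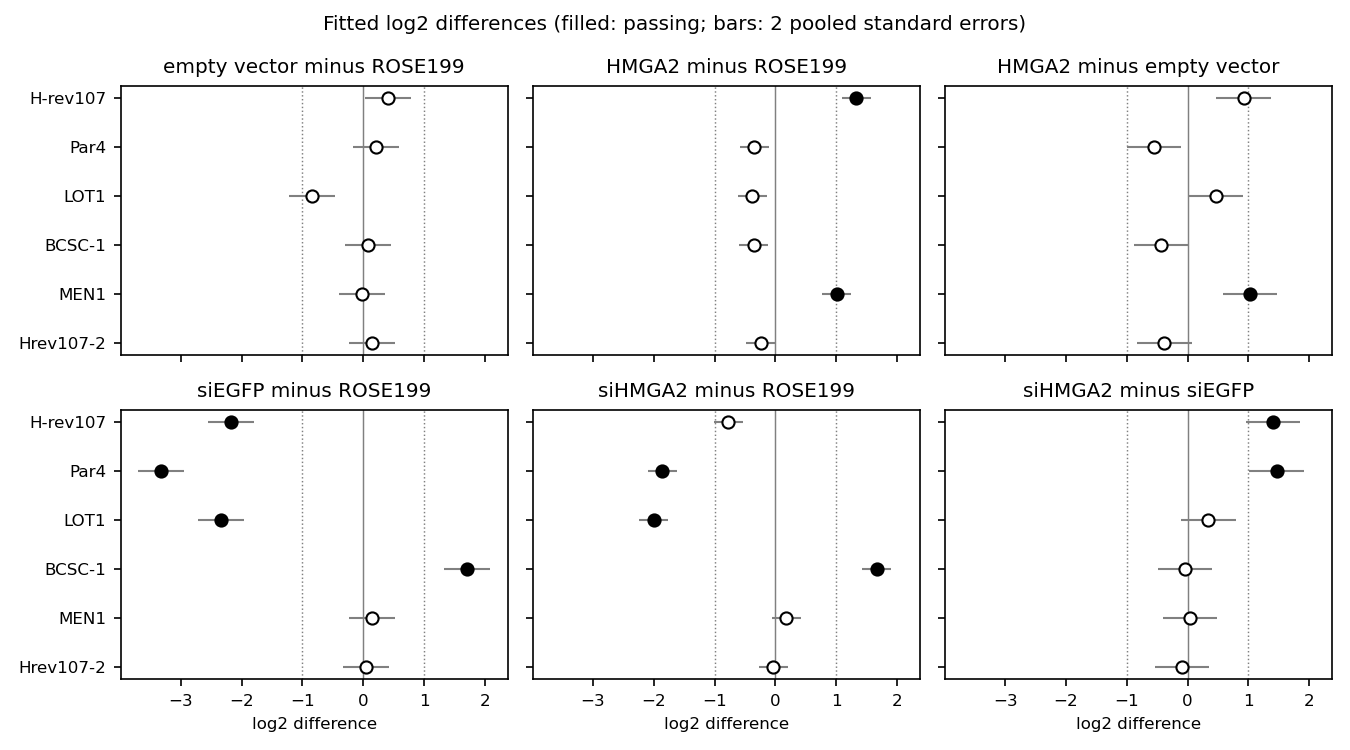
Fitted log2 differences (x axis) of the 6 members (y axis) in the 6 comparisons; filled points pass, bars span 2 pooled standard errors either way and dotted lines mark a size of 1. H-rev107 and Par4 lie to the right for siHMGA2 minus siEGFP, and MEN1 for HMGA2 minus empty vector.

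The members did not share one pattern. By the root mean square difference of the fitted ratios to ROSE199 over the 4 groups, the closest pairs were Hrev107-2 with MEN1 (0.64) and Par4 with LOT1 (0.72), and the most distant pair was Par4 with BCSC-1 (3.07). H-rev107 and Hrev107-2 were 1.42 apart.

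The 3 features most like each member were then taken from the whole array by the same measure. For H-rev107 these were Agrin (0.43), P53 binding protein (0.48, not above blank with siEGFP) and Interferon induced gene (0.58). Par4 was nearest to Cca1 (0.31), Cyr61 (0.39), a secreted matrix protein, and P-cadherin (0.39), an adhesion molecule that had ratios of -3.73 with siEGFP and -2.13 with siHMGA2. LOT1 lay closest to ETF (0.30), Steroid sensitive gene (0.30) and Megakaryocyte potenciating factor (0.41), the mesothelin precursor. For BCSC-1 they were CyclinD1 (0.37), the kinase partner that drives entry into the cell cycle, TDAG51 (0.37) and Prkar2b (0.40), a regulatory subunit of protein kinase A. MEN1 was most like Phosphatase 2A B56 (0.17), H3.3 (0.23), a histone variant, and R-esp1 (0.28). Hrev107-2, flat and dim, was nearest to Ras Gap Neuronal (0.04), Alpha tubulin (0.06) and HPARG (0.08). These distances rest on 4 groups that share the dye term and the reference, and each is a description.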

How the data were processed

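The scanner files give, per the file headers, a mean signal intensity and a median background intensity for every spot and channel. A processed table from the authors holds log2 ratios. Its centring and background correction are not given in the sources used here; its direction, sample over ROSE199, was read from its correlation with the spot ratios (0.841 to 0.948 per array), its column medians run from -0.10 to 0.20, and it served as an alternative.

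Poor spots were left out. Background was corrected by normexp with an offset of 50 and each array was centred by loess (span 0.3, 4 iterations) with weight 0 for blank and beta actin spots, in limma 3.58.1 under R 4.3.3. Spots were averaged per name into 311 features. The spread was pooled over the 1 residual per feature through the median (SD 0.169), and the swapped arrays alone supply these residuals. Their root mean square was 0.229. A channel was above blank where net signal exceeded the blank mean by 3 SD. The number of arrays limits the precision. The fit was also run on simulated ratios with the same noise for every feature, as a check of the calculation. That run does not bear on calls for probes that varied more.

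All 6 members are named, with HMGI-C and K-ras, a list of other growth-restraining genes, marker lists and the 3 features nearest to each member. The members and lists were chosen with earlier results of these data known. PCR fragments of housekeeping genes were not used here. Alternatives were no dye term, Cy5 arrays only, 2 other centrings, scaled arrays, no background subtraction, poor spots kept, features above blank throughout, the deposited ratios and each swapped array left out; the median of spots, an offset of 10 and summed net signals were added after the data were seen.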

Additional observations from a re-analysis of the deposited data

How the results depend on the processing

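No passing difference of a member changed sign under the 16 alternatives. The counts of passing members with siEGFP (4) and siHMGA2 (3) against ROSE199 moved by no more than 1.5 times. For HMGA2 against ROSE199 the count of 2 was 1 with Cy5 arrays only, without background subtraction and in the deposited ratios, and 0 to 2 with an array left out. For HMGA2 against empty vector the count of 1 was 2 with median centring, with the deposited ratios and with summed net signals, 3 with beta actin centring, 0 without background subtraction, and 1 to 3 with an array left out. For siHMGA2 against siEGFP the count of 2 was 0 with scaled arrays, 1 without background subtraction, and 1 to 2 with an array left out. For empty vector against ROSE199 the count of 0 was 1 with scaled arrays, through LOT1 (-1.25). With HMGA2 replicate 1 left out, Par4 passed as lower than with the empty vector (-1.10), and with beta actin centring LOT1 passed as higher (1.01). The cause of these moves was not tested.

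Over all 311 features, passing in siHMGA2 against siEGFP went from 34 to 9 with scaled arrays, 22 without background subtraction, 65 in the deposited ratios and 16 without siHMGA2 replicate 1. In HMGA2 against empty vector it went from 24 to 41 with beta actin centring, 40 with scaled arrays, 15 without background subtraction, 39 with summed net signals and 40 without HMGA2 replicate 1. In empty vector against ROSE199 it went from 9 to 24 with scaled arrays and 15 with either HMGA2 array left out. Beta actin centring moved the median of all features by 0.21 in HMGA2 against empty vector, where 34 were higher and 7 lower in place of 14 and 10, by 0.17 in HMGA2 and by -0.24 in siEGFP against ROSE199. Median centring gave 25 higher and 16 lower in siHMGA2 against siEGFP in place of 27 and 7, and 3 higher and 8 lower in empty vector against ROSE199, as beta actin centring did, in place of 4 and 5. With summed net signals, also centred on the median, these splits were 29 and 15, and 4 and 8. The deposited ratios moved that median by -0.12 in HMGA2 against empty vector (18 higher, 7 lower), by -0.15 in siHMGA2 against siEGFP (38 and 27), and by 0.14 in siEGFP and 0.11 in siHMGA2 against ROSE199. Hrev107-2 has no value among features above blank throughout.

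No paired analysis was possible because the shared numbers mark the dye orientation, which the dye term holds, and the single-array groups have 1 number.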
